A study of Mus musculus with 4 samples.

Results

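Class N cells are the KPC tumor cells in which genes of a set led by Hmga2 and Klhl1 were found more often than genes of 3 other tumor cell sets. KPC cells come from a mouse pancreatic cancer that arises in the pancreatic epithelium and carries mutant Trp53. A tumor cell was first gated: a droplet barcode with at least 2000 UMIs (unique molecular identifiers, 1 per captured RNA molecule), with at least 3 of the epithelial genes Krt7, Krt8, Krt18, Krt19, Epcam, Cldn4, Cldn7 and Cdh1, and with no UMI of Ptprc, Pdgfra or Pecam1, which mark leukocytes, fibroblasts and endothelial cells (ECs). It was put in class N when at least 2 of Hmga2, Klhl1, Lingo2, Rgs20, Ndst3 and Tnnt2 were detected and this number was above that of each of the class G set (Gkn1, Gkn2, Muc5ac, Mucl3, Tff1 and Sptssb), the class S set (Sprr1a, Ivl, Anxa10, Glod5, Fermt1 and Wfdc2) and the class H set (Tenm1, Pkhd1, Pik3c2g, Plch1, Onecut3 and Hnf1aos1). The 4 libraries held 45218 cells and between 84020317 and 155408336 UMIs each, and 19431 cells were gated and 4121 were in class N. The same rule put 929 gated cells in class G, 5092 in class S and 3731 in class H, and 5558 stayed unassigned.

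There was 1 library per condition, so treated and control cells were compared without replicates and no test was made. All mice were obese males listed as C57BL/6, and the methods name C57BL/6J for the D-CAN mice. They were kept on a high-fat diet for 24 weeks, with KPC cells grafted into the pancreas and a listed age of 7 months. Pdgfrb-TK/GCV mice carried a thymidine kinase transgene under the Pdgfrb promoter, which is active in stromal cells, and received ganciclovir (GCV) at 50 mg/kg, while Pdgfrb-TK/PBS mice carried the same transgene and received saline. D-CAN mice were wild-type and received D-CAN, a peptide that homes to stromal cells bearing a form of decorin without its sugar chain and kills them, at 30 mg/kg, and WT/PBS mice were wild-type and received saline. Treatment lasted 25 days. The suspensions of the tumors of a treatment were pooled before capture, and the grafted cells were of a single KPC line in all 4 groups. The extraction text of the labels describes nuclei of a brain region, so the libraries were taken by their titles. Values are given below with the Pdgfrb-TK libraries first (GCV, then saline) and the wild-type libraries after them (D-CAN, then saline), called the library order.

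Hmga2 is a chromatin protein with AT hooks that is abundant in the embryo, low in most adult tissues and expressed again in many carcinomas, pancreatic ductal adenocarcinoma among them. The let-7 microRNAs repress it through sites in its 3′ untranslated region (3′UTR), and Lin28 proteins in turn block the maturation of let-7. Poorly differentiated pancreatic tumors are known for losing glandular and gastric-type gene expression, a process called dedifferentiation, often together with genes of epithelial to mesenchymal transition (EMT).

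The let-7 seeds and the Hmga2 sites are shown because Hmga2 was detected in more class N cells than any other gene of the set. The mature let-7 sequences below are from RefSeq (GRCm38.p6), written 5′ to 3′ with the seed, bases 2 to 8, in capitals. Of 10 mouse let-7 names, 9 share the seed GAGGUAG, and 4 of these are shown.
let-7a-5p: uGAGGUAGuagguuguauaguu
let-7b-5p: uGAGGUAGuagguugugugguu
let-7g-5p: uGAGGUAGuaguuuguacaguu
let-7i-5p: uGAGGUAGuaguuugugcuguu

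The 3′UTR of Hmga2 (GENCODE M21, GRCm38, minus strand) is 3014 bases long and holds the seed complement CTACCTC at 4 places. They are written below 5′ to 3′ on the transcript strand, with the complement of the seed in capitals.
chr10:120364224-120364246: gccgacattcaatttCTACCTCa
chr10:120362987-120363009: ccccactcctcaataCTACCTCt
chr10:120362549-120362571: ctgatttgcaaggaaCTACCTCc
chr10:120361691-120361713: aatcaaaacacactaCTACCTCt

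The letters CTACCTC occur on the transcript strand in the longest 3′UTR of 1880 of 21683 genes (8.67%). The median over all these 3′UTRs is 908 bases, so the longer Hmga2 3′UTR has more room for matches. A match is a description of the letters, and let-7 itself was not measured.

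WT/PBS stood apart from the other 3 libraries and has to be read with that in view. The gated tumor cells were clustered without the genes of the gate and of the class rule. Of 17 clusters, 2 (numbers 0 and 4) were made of class N cells by more than 50%, and they held 55.1% of all class N cells against 6.53% of the other gated cells. Cluster 0 was 76.3% class N, yet only 2.06% of its 2189 cells came from WT/PBS, and it held 29 class N cells of that library. Most class N cells of WT/PBS, 433 of 761, were in cluster 3 instead, which was 35.4% class N and 90.8% WT/PBS. When each library was clustered alone, clusters of more than 50% class N held 82.7% of the class N cells of Pdgfrb-TK/GCV, 64.8% of those of Pdgfrb-TK/PBS and 79.4% of those of D-CAN. The same clusters also held 21.4%, 5.45% and 13.0% of the other gated cells of these libraries. In WT/PBS there was no such cluster, and the highest share was 38.2%. Class N was 15.3% of the gated cells of WT/PBS, and its top 2 clusters held 45.7% of the class N cells. At that limit and resolution the class N cells of WT/PBS thus formed no cluster of their own, though they were not spread evenly. Counts of genes without this library are given after the gene lists.

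The cells were chosen by the detection of these 6 genes and of the other 3 sets, so the levels of the 6 genes are a description without a test. Hmga2 (chr10:120361275-120476469) reached 1376, 1534, 1616 and 635 CPM (UMIs summed over the class and scaled to a common total) in class N cells in library order, against 484, 272, 360 and 316 CPM in the other gated tumor cells. The WT/PBS value was the lowest of the 4 and lay nearer to the other tumor cells than in the rest. Klhl1 (chr14:96102736-96519102), a Kelch-family actin-binding protein known from neurons, had 303, 356, 320 and 60.4 CPM against 95.6, 48.3, 64.0 and 14.9 CPM. Lingo2 (chr4:35706647-36951747), a transmembrane protein with leucine-rich repeats, had 144, 222, 96.4 and 36.6 CPM against at most 11.35 CPM in the other gated cells of any library. WT/PBS was again lowest for both genes.

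**Figure D1:**
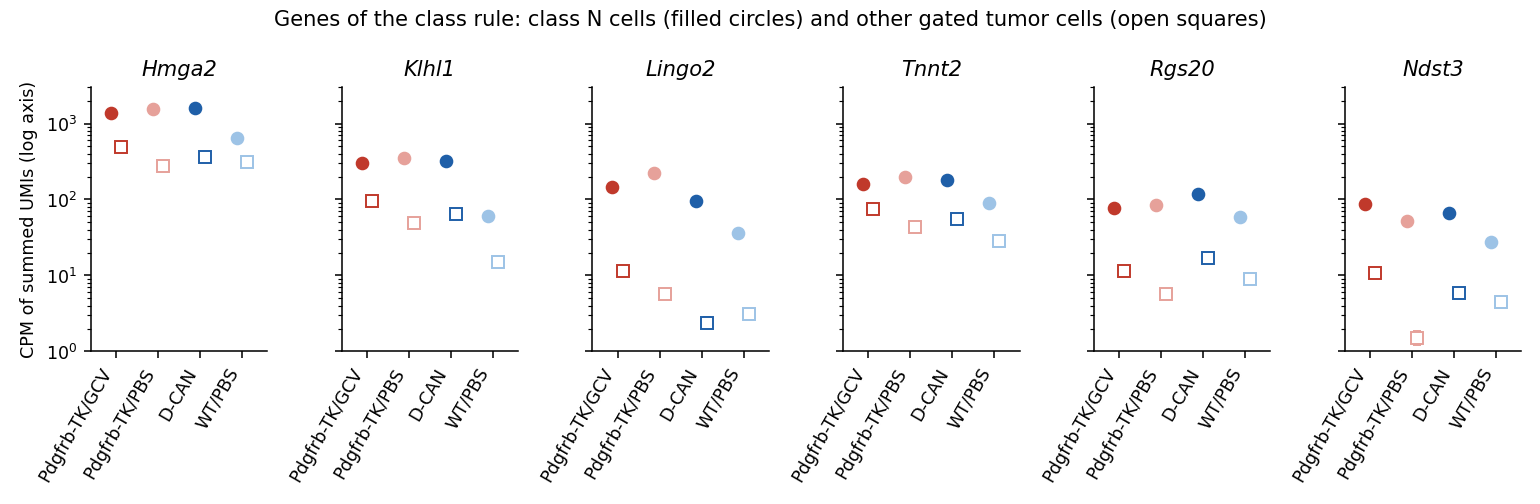
Level of each of the 6 genes that chose class N, as CPM of summed UMIs on a log axis, in class N cells (filled circles) and the other gated tumor cells (open squares) of each library, with exact Poisson 95% intervals that are mostly smaller than the symbols. Class N cells were higher for every gene in every library, which the rule brings about, and WT/PBS had the lowest class N level of all 6 genes.

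Tnnt2 (chr1:135836354-135852260), the troponin T of heart muscle, had 158.5, 200.3, 182 and 91.1 CPM in class N cells and 75.4, 43.2, 55.6 and 28.8 CPM in the others. Rgs20 (chr1:4909576-5070285), a regulator of G protein signaling, had 78.0, 83.7, 117 and 59.3 CPM against 11.6, 5.79, 16.9 and 8.94 CPM. Ndst3 (chr3:123526166-123690853), an enzyme that modifies heparan sulfate, had 87.7, 52.3, 67.0 and 27.7 CPM against 10.9, 1.52, 5.81 and 4.44 CPM. Tnnt2 came without the rest of the muscle program: of 14 listed striated muscle genes, none reached the 10 CPM mean needed for a comparison. Their summed level in class N cells was 8.44, 8.83, 7.39 and 12.9 CPM, led by Tnnc1.

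Of 13 close paralogs of the set genes, 5 were compared and 4 were above the shift of all genes in all 4 libraries. The shift is the median log2 difference of all compared genes in a library. Of all compared genes, 34.2% were above it in all 4 libraries. Hmga1, the sister gene of Hmga2, had 111, 103, 112 and 165 CPM in class N cells against 70.1, 39.5, 52.2 and 91.9 CPM. Unlike Hmga2, it was highest in WT/PBS. Rgs17 had 43.7, 31.8, 54.8 and 27.5 CPM against 16.9, 7.76, 13.5 and 13.5 CPM, and Klhl5 and Ndst1 were also above the shift. Rgs19 differed by 0.12, 0.44, 0.26 and 0.23, and in Pdgfrb-TK/GCV it was below the shift of 0.14. Ndst2, at 8.23, 7.998, 9.52 and 6.50 CPM in class N cells, was under the limit for comparison and differed by 0.05, −0.03, 0.08 and −0.50. Lingo1, Lingo3, Lingo4, Klhl4 and Ndst4 had under 1 CPM in class N cells of Pdgfrb-TK/GCV, as did Tnnt1 and Tnnt3.

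Detection of the set depends on depth. Hmga2 had a UMI in 99.0%, 99.3%, 98.8% and 98.7% of class N cells in library order, and in 80.5%, 86.1%, 83.0% and 57.8% after every cell was thinned to 2000 UMIs. Among the other gated tumor cells these shares were 71.8%, 57.3%, 67.3% and 66.1%, and 39.6%, 28.9%, 31.0% and 31.3% after thinning. Ptprc-positive cells without any gate gene, which should lack Hmga2, had it in 10.4%, 8.82%, 3.42% and 5.13% at a median depth of 4416, 3275.5, 3800 and 5414.5 UMIs. Hmga2 was thus found in most tumor cells outside class N too, at shares above those of the leukocytes.

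Klhl1, which the rule uses as well, was found in fewer cells than Hmga2 inside and outside the class. It was found in 76.2%, 76.9%, 74.2% and 51.9% of class N cells, in 33.4%, 21.1%, 28.5% and 11.4% of the other gated cells and in at most 0.8% of the Ptprc-positive cells of any library. After thinning, the class N shares were 35.2%, 42.2%, 33.1% and 11.4%. WT/PBS was lowest at both depths. These shares are in part set by the rule and are a description without a test.

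Detection of the set genes in the same cells is given as a description. With all gated cells thinned to 2000 UMIs, cells with a given gene of the set had each of the other genes more often than cells without it in 118 of 120 ordered pairs and libraries, and in 90 of 90 without WT/PBS. The ratio of the shares had a median of 2.48 and ran from 0.824 to 17.1. These ratios use the genes of the rule over all gated cells and carry no p-value. The set was chosen with earlier results of these data known, so the ratios are no support for it.

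Many class N cells lie near the cut. Exactly 2 genes of the set were found in 493 class N cells (11.96%), 3 in 1016, 4 in 1247, 5 in 965 and all 6 in 400. In WT/PBS the share with only 2 was 20.5%, against 10.0%, 11.3% and 8.69% in the other libraries. The lead over the next set was a single gene in 1791 class N cells (43.5%), and in 60.4% of those of WT/PBS. Just outside, 1820 gated cells had 2 or more class N genes and as many of another set, 66 led with a single class N gene, and 3879 had 2 or more class N genes but more of another set. Only 4313 gated cells had no gene of the set.

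Class N cells also carried genes of the other sets. A class S gene was found in 93.7%, 92.1%, 96% and 95.7% of them, with a mean of 1.95, 1.73, 2.05 and 1.84 of the 6 genes per cell. A class G gene was found in 63.9%, 93.1%, 36% and 66.2%. The mean number of class N genes per class N cell was 4.07, 3.83, 4.25 and 3.44, lowest in WT/PBS.

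Class N cells were deeper and had fewer mitochondrial UMIs than the pool of all other gated cells. The median class N cell held 15846.5, 9931, 25217 and 22503 UMIs, against 12596, 9052, 19958 and 13039 in the other gated cells. Mitochondrial genes took a median of 4.44%, 3.06%, 3.19% and 4.20% of UMIs in class N cells and 5.47%, 4.71%, 5.74% and 7.01% in the others. Class S was close to class N in both, with medians of 15220.5, 12551.5, 24930.5 and 17699.5 UMIs and of 4.56%, 3.29%, 3.88% and 5.48% mitochondrial UMIs, and it was the deeper of the pair in Pdgfrb-TK/PBS. The 8% of cells with the highest doublet scores made up 5.25%, 4.41%, 7.17% and 5.39% of class N, less than in the other gated cells of the same library. A deeper cell passes the rule more easily, and the part of depth in the differences below was not tested.

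Class N was 35.0% of the gated tumor cells with GCV and 12.5% with saline in Pdgfrb-TK mice, and 23.5% with D-CAN and 15.3% with saline in wild-type mice. The Clopper-Pearson 95% intervals ran from 33.8% to 36.3%, 11.7% to 13.4%, 22.1% to 25.1% and 14.3% to 16.3%, and they cover counting error only. The share was 2.80 times higher with GCV than with saline in Pdgfrb-TK mice (interval of the conditional binomial 2.57 to 3.05), and 1.54 times higher with D-CAN than with saline in wild-type mice (1.39 to 1.71). Thinned to 2000 UMIs, the shares were 24.05%, 10.7%, 17.2% and 5.95%, with folds of 2.24 and 2.88. The gated cells themselves were 43.8%, 57.0%, 28.6% and 42.8% of all cells.

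The order of the 2 saline libraries turned with depth. The share in Pdgfrb-TK/PBS was 0.821 of that in WT/PBS at full depth and 1.80 times it after thinning, so no order is read from them. The D-CAN fold was not stable to the gate: with cells holding a UMI of a listed macrophage, neutrophil, T cell, B cell or EC marker also left out, it was 0.922 (0.725 to 1.17). That stricter gate left 847, 2770, 884 and 2160 tumor cells, of which 207, 256, 100 and 265 were in class N. Its markers include Flt1 and Mrc1, which were higher in class N cells in all 4 libraries. They also include Lyz2 and the neutrophil markers, of which Lyz2 and the neutrophil sum were lower in class N cells in all 4 libraries. The gate thus removes cells by genes that differ between class N and the other gated cells in both directions, and the part of this in the fold was not tested. The GCV fold lay between 2.24 and 3.19 in the alternatives that changed 1 choice. With cells thinned and WT/PBS as the control it was 4.04. With 1 library a condition, the spread between tumors is unknown.

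**Figure D2:**
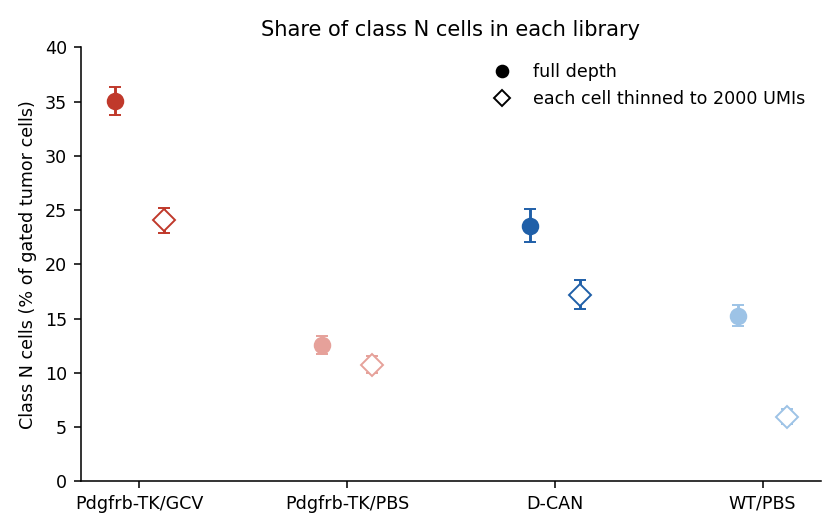
Class N cells as a percent of the gated tumor cells of each library, at full depth (circles) and with each cell thinned to 2000 UMIs (diamonds), with exact 95% intervals for counting error. Pdgfrb-TK/GCV was highest at both depths, at 35.0% and 24.05%, and WT/PBS was lowest after thinning, at 5.95%.

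Beyond the genes of the rule, class N cells were compared with the other gated tumor cells of their own library over 8522 genes. The cells were sorted on counts of the same libraries, so these differences describe the class and are no test of it. The 10 CPM mean needed for a comparison could be reached through either group of cells alone. Counts of genes past 2-fold are thus in part set by that filter. In all 4 libraries 139 genes (1.63%) were at least 2-fold higher and 191 (2.24%) at least 2-fold lower, on the scale of log2 (CPM + 1). Without WT/PBS, over the same genes, the numbers were 249 and 253. The median difference of all compared genes was 0.14, 0.19, 0.15 and 0.11 (log2) in library order, a general shift against which the lists are read. Of the genes past 2-fold, 42.1% were higher with CPM, but 22.7% (74 genes higher, 252 lower) when the sums were scaled by TMM, which removes most of that shift.

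**Figure D3:**
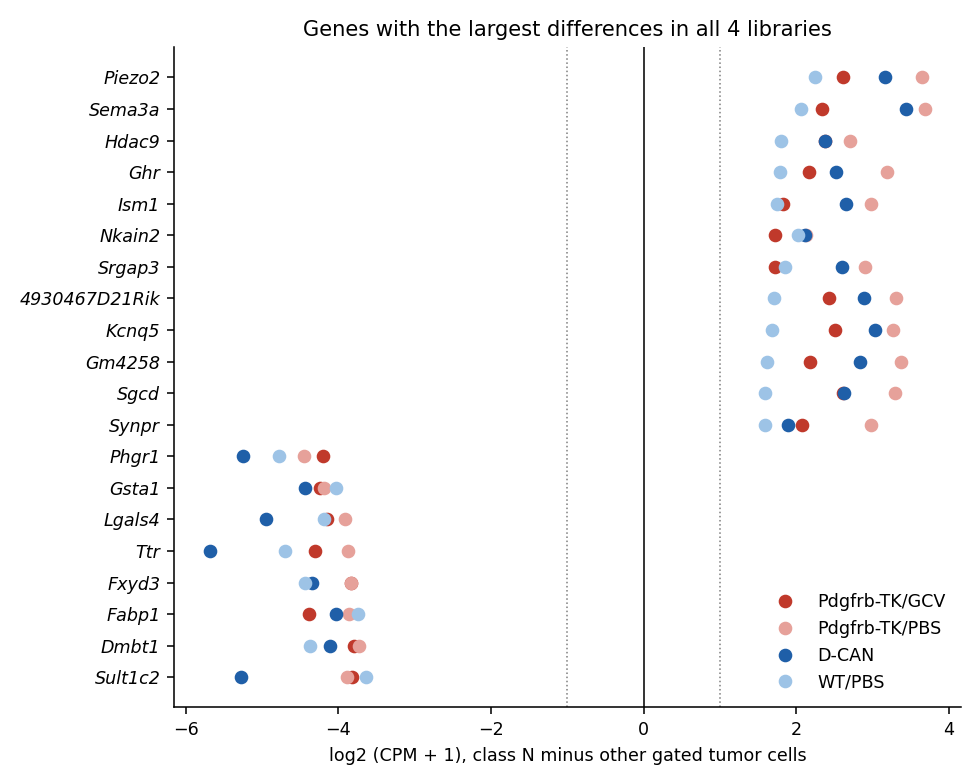
Difference in log2 (CPM + 1) between class N cells and the other gated tumor cells for the 12 genes with the largest rises and the 8 with the largest falls, ranked by the smallest of the 4 libraries; points are libraries and dotted lines mark 2-fold. WT/PBS had the smallest difference for most of the genes that were higher and for fewer of those that were lower.

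The gene with the largest minimum rise was Piezo2, a mechanically gated cation channel of sensory neurons, at 600, 546, 931 and 303 CPM in class N cells, or 2.61, 3.65, 3.16 and 2.25 (log2) above the other tumor cells. Ghr, the growth hormone receptor, had 964, 817, 1176 and 534 CPM, a difference of 2.17, 3.19, 2.53 and 1.79. Sema3a, a secreted axon guidance cue, had 93.7, 137, 91.3 and 54.3 CPM, a difference of 2.34, 3.69, 3.43 and 2.07. All 3 genes were thus several-fold higher in each library, least in WT/PBS.

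Among the next genes were Hdac9, a class IIa histone deacetylase (difference 2.37, 2.70, 2.37 and 1.80), and Ism1, a secreted protein (1.83, 2.98, 2.66 and 1.75). Ism1, at a mean of 6.995 CPM in the other gated cells, passed the filter on levels only through class N cells. Kcnq5 encodes a voltage-gated potassium channel, and its difference was 2.50, 3.27, 3.03 and 1.68. Nkain2, a protein that interacts with the sodium pump, Srgap3, a GTPase-activating protein of migrating neurons, Synpr, a synaptic vesicle protein, and Sgcd, a sarcoglycan, were also at least 2-fold higher in every library. So were the uncharacterized transcripts 4930467D21Rik and Gm4258. Sgcd had the widest spread of class N levels, at 74.2, 264, 64.4 and 18.5 CPM.

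Genes higher in class N cells were long. The median genomic span was 107.6 kb for the 139 genes, 27.6 kb for all compared genes and 20.05 kb for the 191 that were lower. Spans over 100 kb made up 53.2% of the genes that were higher and 14.9% of all compared. Genes of over 100 kb took a median of 13.9%, 13.3%, 16.7% and 11.7% of UMIs in a class N cell and 9.77%, 9.08%, 10.95% and 9.90% in another gated cell. Class H cells, at 15.1%, 13.8%, 12.7% and 13.1%, were above class N in every library but D-CAN. The set genes themselves span 416.4 kb (Klhl1), 1245 kb (Lingo2), 115.2 kb (Hmga2), 160.7 kb (Rgs20), 164.7 kb (Ndst3) and 15.9 kb (Tnnt2). The 3 nuclear-retained RNAs together took a median of 1.22%, 1.53%, 1.47% and 1.29% of UMIs in a class N cell and 0.852%, 0.957%, 0.962% and 1.09% in another gated cell. In class H the share was 1.31%, 1.95%, 1.30% and 1.54%, again above class N in every library but D-CAN, so high shares of long genes and of nuclear-retained RNAs were common to both classes. Most of the share was Malat1, which was higher by 0.35, 0.61, 0.46 and 0.23 (log2), while Neat1 was at −0.07, 0.17, −0.09 and −0.20. Whether the authors counted reads in introns is not given in the sources used here. The deposited headers name Cell Ranger 7.0.0, which counts them by default, and the part of unspliced or nuclear RNA in these differences was not tested.

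The levels of Piezo2 and Ghr were higher in cells with all 6 set genes than in cells with 2, and so was depth. Ghr went from 574 to 1308 CPM in Pdgfrb-TK/GCV, from 614 to 1173 CPM in Pdgfrb-TK/PBS, from 811 to 1210 CPM in D-CAN and from 346 to 1141 CPM in WT/PBS. Piezo2 went from 538 to 804 CPM, 365 to 685 CPM, 570 to 943 CPM and 207 to 606 CPM in library order, though not at every step: it fell from 2 to 3 genes in both Pdgfrb-TK libraries and from 5 to 6 genes in Pdgfrb-TK/PBS and D-CAN, and Ghr fell from 5 to 6 genes in D-CAN. Median depth went from 9278 to 23620 UMIs in Pdgfrb-TK/GCV and from 9551.5 to 43596 UMIs in WT/PBS. Only 24 class N cells of WT/PBS had all 6 genes. Cdh2 varied less, from 276 CPM with 2 genes to 254 CPM with 6 in Pdgfrb-TK/GCV, from 213 to 236 CPM in Pdgfrb-TK/PBS, from 237 to 258 CPM in D-CAN and from 237 to 275 CPM in WT/PBS.

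The 8 genes with the largest falls were Phgr1, Lgals4, Gsta1, Ttr, Fxyd3, Fabp1, Dmbt1 and Sult1c2. The rule asks for fewer class G, S and H genes than class N genes, so low levels of genes that go with those sets are in part set by the choice of cells. Phgr1, a small protein of gut epithelium, was lower by the largest margin, with differences of −4.21, −4.45, −5.25 and −4.78 (log2). Lgals4, a galectin of intestinal and gastric epithelium, had 21.8, 78.2, 13.0 and 34.3 CPM in class N cells and 403, 1189, 433 and 641 CPM in the others. The glutathione transferase Gsta1, the transthyretin gene Ttr, the ion transport regulator Fxyd3, the fatty acid binding protein Fabp1, the mucosal scavenger protein Dmbt1 and the sulfotransferase Sult1c2 followed, each at a difference of −3.64 or below in all 4 libraries. Phgr1, Ttr, Fabp1 and Sult1c2 had means of 3.67, 6.78, 1.91 and 2.64 CPM in class N cells. They passed the filter on levels only through the other gated cells, so their place among the falls is in part set by the filter.

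Of 12 gastric-type mucous genes, 7 passed the filter on levels and were at least 2-fold lower in all 4 libraries, with medians of −3.41, −3.24, −3.65 and −3.81. Tff2, a trefoil peptide of gastric mucus, had 25.3, 62.0, 9.94 and 9.35 CPM in class N cells against 433, 758, 586 and 365.5 CPM. Muc1, a membrane mucin, had 17.4, 26.5, 12.4 and 13.5 CPM against 181, 259, 167 and 110 CPM. Ctse, Vsig1, Tff3 and Spink4 were the other members. Tff3 and Spink4, at means of 3.73 and 1.06 CPM in class N cells, passed the filter only through the other gated cells. Their place in the count is thus in part set by the filter.

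The epithelial genes of the gate were kept unevenly. Krt8 was at 1325, 1906, 1384 and 1568 CPM in class N cells and 2842, 3458, 2500 and 3010 CPM in the others, so this keratin stayed high. Krt19 had 321, 438, 557 and 490 CPM against 1024, 1504, 956 and 940 CPM. Krt7 was nearly lost, at 25.6, 26.5, 6.23 and 14.9 CPM against 270, 243, 145 and 197 CPM. Epcam, an adhesion molecule of epithelia, had 10.1, 3.22, 5.25 and 6.05 CPM against 65.7, 32.3, 27.0 and 45.7 CPM, and Cdh1, the E-cadherin gene, had 126, 180, 127 and 136 CPM against 309, 329, 323 and 281 CPM. Every gated cell had to show 3 of these genes, so the levels describe tumor cells that passed that gate.

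Of the 15 junction and epithelial splicing genes, 8 were compared: 3 were at least 2-fold lower in all 4 libraries and none higher, and 6 were below the general shift in all 4. Tjp3, a tight junction scaffold, differed by −3.04, −2.89, −3.22 and −2.69, Crb3, a polarity protein, by −2.19, −2.20, −2.38 and −2.53, and Dsp, the desmosomal plaque protein, by −1.89, −1.43, −3.00 and −1.50. Tjp3 and Crb3, at means of 1.70 and 8.33 CPM in class N cells, passed the filter on levels only through the other gated cells. Ocln and Cgn, at 5.96 and 8.83 CPM, did so too, and the count of lower members is in part set by the filter. Tjp1 and F11r stayed level, with differences between −0.06 and 0.47. Among all compared genes 34.7% were below the shift in all 4 libraries and 34.2% above it.

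The name "dedifferentiated" fits some lists and not others. Of the 10 compared pancreatic epithelial transcription factors, Elf3 (−3.30, −3.19, −3.43 and −2.59) and Gata4 (−1.85, −2.08, −2.74 and −1.08) were lower past 2-fold, and 7 were below the shift in all 4 libraries. Gata4, at a mean of 6.65 CPM in class N cells, passed the filter on levels only through the other gated cells. Gata6, which marks the classical subtype of this cancer, had 121, 129, 122 and 119 CPM against 106, 104, 129 and 101 CPM, so it was slightly lower in D-CAN and slightly higher in the other 3 libraries. Foxa2 differed by −0.04 to 0.26, and Sox9, a ductal and progenitor factor, was higher by 0.62, 0.97, 0.69 and 0.68. Onecut2 differed by −0.97 to −0.50 and Pdx1, a master factor of pancreas development, by −0.51 to −0.14.

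Of 9 compared pancreatic duct genes, only Prom1, a membrane protein of apical protrusions, was past 2-fold in all 4 libraries, with differences of −3.10, −2.82, −3.62 and −2.88. Spp1, the osteopontin gene, had 4150, 2838, 5409 and 2572 CPM in class N cells and 4570, 2413, 4595 and 2598 CPM in the others, differences between −0.14 and 0.24. The duct list had 1 member above the shift and 5 below it in all 4 libraries. Class N cells thus kept part of the duct list while the mucous list was low.

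**Figure D4:**
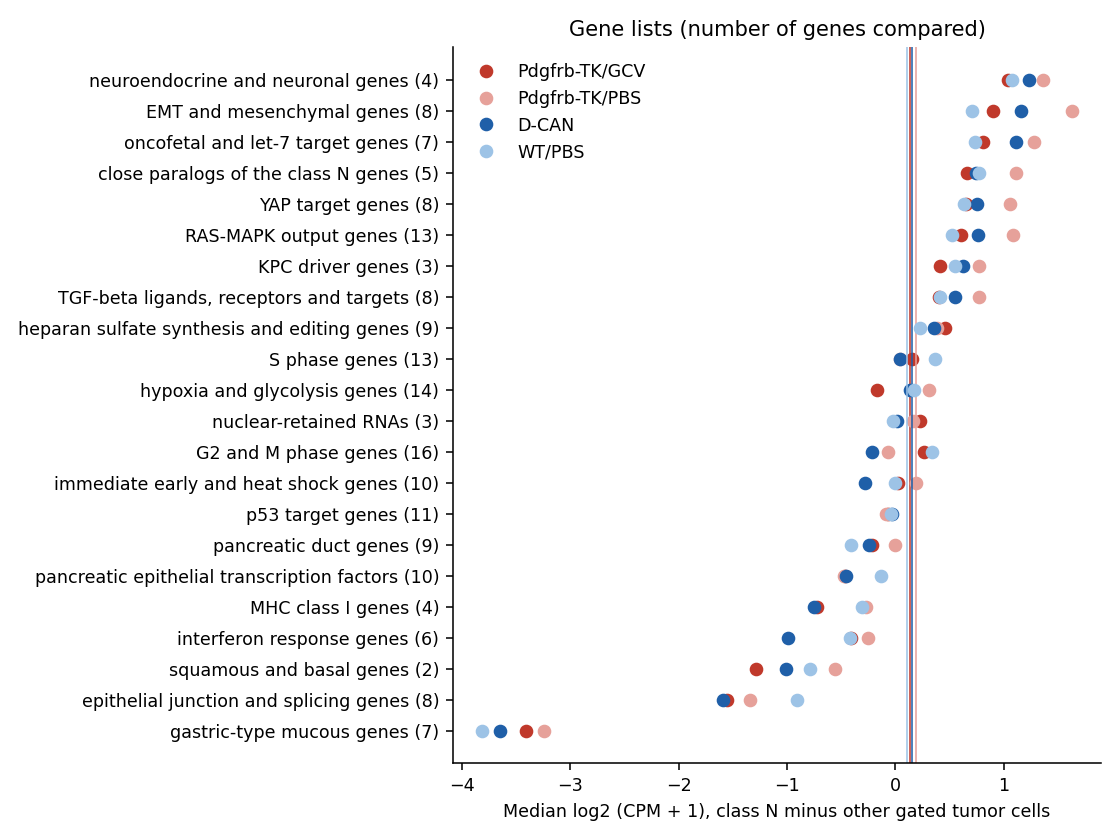
Median difference in log2 (CPM + 1) between class N cells and the other gated tumor cells for each gene list, with the number of genes compared in brackets; points are libraries and the thin vertical lines are the medians over all 8522 genes. The gastric-type mucous list sits between −3.81 and −3.24, far below all other lists, and the EMT, neuronal and oncofetal lists sit above the lines in all 4 libraries. So do the RAS-MAPK, YAP, TGF-beta, paralog, heparan sulfate and KPC driver lists.

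Of 14 EMT and mesenchymal genes, 8 were compared, 5 were above the shift in all 4 libraries and 1 was past 2-fold. That gene was Cdh2, the N-cadherin gene, at 250, 241, 251 and 274 CPM in class N cells and 77.7, 40.7, 64.4 and 107 CPM in the others. Its class N level was as high in WT/PBS as elsewhere. Zeb1 and Zeb2, repressors of epithelial genes, were higher by 0.61 to 1.44 and by 0.91 to 2.17. Fn1, the fibronectin gene, was higher by 0.75, 2.04, 1.36 and 0.96, and Prrx1, a mesenchymal transcription factor, by 0.82 to 1.82.

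Vim did not follow. It had 1892, 1710, 1772 and 2815 CPM in class N cells and 2118, 1832, 1642 and 2376 CPM in the others, so its summed level was high in both and the difference lay between −0.16 and 0.24. S100a4 was also on both sides of 0. Sparc was higher by 0.36, 0.86 and 0.89 in the first 3 libraries and at −0.91 in WT/PBS, where the other gated cells also had the most collagen RNA (Col1a1 at 185 CPM). The part of stromal RNA in that value was not tested. Snai1, Snai2, Twist1 and Twist2 were too low to compare, Twist1 reaching 11.3, 2.87, 17.7 and 9.75 CPM in class N cells.

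Of 10 TGF-beta genes, 8 were compared and 5 were above the shift in all 4 libraries. Inhba, the activin A subunit, had 394, 355, 370 and 119 CPM in class N cells and 184, 54.9, 64.8 and 56.1 CPM in the others, and was past 2-fold in all 4. Ltbp1, which holds latent TGF-beta in the matrix, was higher by 1.07, 1.45, 1.41 and 0.86. The receptor Tgfbr2 was below the shift in all 4 libraries.

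Of the 8 YAP target genes, all were compared and 6 were above the shift in all 4 libraries. Axl, a receptor tyrosine kinase tied to mesenchymal states, was past 2-fold at 197, 164, 201 and 149 CPM against 80.04, 39.97, 68.4 and 66.05 CPM. Crim1 was higher by 0.66 to 1.24 and Ccn2 by 0.06 to 0.76.

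Oncofetal and let-7 target genes were mostly higher beside Hmga2. Of 12 listed, 7 were compared and 6 were above the shift in all 4 libraries, against 34.2% of all compared genes. The medians were 0.81, 1.28, 1.12 and 0.74. Trim71, a stem cell RNA-binding protein, was past 2-fold in all 4 libraries, at 15.2, 13.8, 22.1 and 17.0 CPM against 3.48, 2.30, 5.95 and 6.54 CPM. It passed the filter on levels only through class N cells, with a mean of 4.57 CPM in the others. So did Arid3a, with a mean of 8.52 CPM in the others. The count above the shift is thus in part set by the filter. Igf2bp1, Igf2bp2 and Igf2bp3, fetal RNA-binding proteins, were higher by 0.74 to 1.39, 0.77 to 1.28 and 0.58 to 1.20. Lin28a had no UMI in class N cells of any library, and Lin28b had at most 1.16 CPM.

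The seed complement printed for Hmga2 occurred 4 times each in the 3′UTRs of Trim71 (5512 bases), Igf2bp1 (6337 bases) and Lin28b (4445 bases). It occurred 2 times in Arid3a and Lin28a, 1 time in Hmga1, Igf2bp2, Igf2bp3 and Plagl2, and not in Igf2 or Dlk1. Plagl2, which has a match, was the member that did not clear the shift in all 4 libraries, with differences of 0.09 to 0.28. The members with 4 matches that were compared, Trim71 and Igf2bp1, were higher by 0.74 to 2.17. The list was put together for its known let-7 targets, so these matches are no support for a link.

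Of 17 neuroendocrine and neuronal genes, 4 were compared. Map2, a microtubule protein of dendrites, had 44.6, 38.3, 51.2 and 14.6 CPM in class N cells and 12.3, 3.54, 7.78 and 4.64 CPM in the others. Snap25, a protein of vesicle fusion, had 25.9, 15.3, 14.7 and 15.2 CPM against 9.27, 6.13, 6.03 and 5.24 CPM. Both were past 2-fold in all 4 libraries, Ncam1 was higher by 0.70 to 1.53, and Tubb3 was lower in 3 libraries and level in WT/PBS. Map2 and Snap25, at means of 7.06 and 6.67 CPM in the other gated cells, passed the filter on levels only through class N cells. Their place among the compared genes is thus in part set by the filter. Insm1, a defining neuroendocrine factor, had at most 2.32 CPM, so the neuronal genes came without it.

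Ndst3 makes heparan sulfate together with other enzymes. Of 18 such genes 9 were compared, none was past 2-fold in all 4 libraries, 5 were above the shift and 3 below it. Ext1, a subunit of the chain polymerase, had 776, 405, 950 and 391.8 CPM in class N cells and 316, 122, 325 and 232 CPM in the others. Its partner Ext2 differed by −0.15 to 0.01. Hs2st1 was higher by 0.36 to 0.88, and Hs3st1, which adds a rarer sulfate, differed by −1.49 to −0.86.

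Most of the RAS-MAPK output genes were above the shift, none by 2-fold throughout. Of 13 compared, 10 were above the shift in all 4 libraries and none was past 2-fold in all 4, with medians of 0.60, 1.08, 0.76 and 0.52. Dusp5, a phosphatase that ERK switches on, had 197, 197, 199 and 225 CPM against 119, 58.3, 92.5 and 124 CPM. Spred1 and Spred2, feedback inhibitors of the pathway, were higher by 0.65 to 1.45 and 0.43 to 1.04. Phlda1 was an exception, with differences of −0.58, −0.06, −0.33 and 0.20.

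Trp53 and Myc were above the shift in all 4 libraries. Trp53 differed by 0.30, 0.55, 0.35 and 0.55 and Myc by 0.41, 0.77, 0.70 and 0.67. These are differences in RNA and say nothing of the mutant alleles.

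The cell cycle lists gave no common direction. Of 13 S phase genes, 3 were above and 1 below the shift in all 4 libraries, and of 16 G2 and M phase genes, 1 was above and 2 below. Mki67 had 73.55, 45.7, 60.02 and 49.5 CPM in class N cells and 67.6, 60.8, 90.0 and 47.6 CPM in the others. Class N was higher for it in Pdgfrb-TK/GCV and WT/PBS and lower in Pdgfrb-TK/PBS and D-CAN. Rrm2 alone was clearly lower in each library, at −1.32 to −0.74.

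The stress response lists had no common direction. Of 14 hypoxia and glycolysis genes, Car9 was lower past 2-fold (−1.36, −1.28, −1.52 and −1.08), P4ha1 was higher by 0.59 to 1.33, and the median changed sign between libraries. Of 11 p53 targets, 3 were above and 5 below the shift, with medians from −0.09 to −0.03. Of 10 immediate early and heat shock genes, 2 were below the shift in all 4 libraries, and Fos differed by −1.63 to −0.41. The median of the hypoxia list changed sign in D-CAN under TMM, as did that of the S phase list in Pdgfrb-TK/PBS and D-CAN.

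Of 6 compared interferon response genes 3, and of 4 compared MHC class I genes 3, were below the shift in all 4 libraries. H2-K1, an MHC class I heavy chain, had 39.2, 25.9, 281 and 35.8 CPM in class N cells and 63.3, 28.4, 470 and 40.9 CPM in the others. Tapbp, which loads peptides on MHC class I, differed by −1.15 to −0.86. Of the squamous and basal list, Lamb3, a laminin chain of basement membranes, differed by −1.29, −0.52, −1.25 and −1.04.

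Host cell markers were at low levels in class N cells, and not all of their lists were below the other gated cells. The 8 listed CAF (cancer-associated fibroblast) markers summed to 44.6, 90.5, 95.3 and 216 CPM in class N cells and 124, 159, 159 and 590 CPM in the others, with Col1a1 as the most abundant. The 10 macrophage markers summed to 109, 82.7, 41.8 and 24.3 CPM in class N cells and 183, 69.7, 38.1 and 50.7 CPM in the others. The 6 T cell markers summed to 4.75, 3.22, 5.58 and 2.001 CPM against 4.58, 2.38, 4.55 and 2.48 CPM. The 6 pericyte markers summed to 5.71, 7.998, 7.34 and 11.8 CPM against 4.26, 4.75, 4.64 and 13.3 CPM. T cell and pericyte sums were thus higher in class N in every library but WT/PBS, and macrophage sums in Pdgfrb-TK/PBS and D-CAN. The 8 acinar markers summed to 20.7, 22.3, 269 and 20.01 CPM against 31.2, 34.5, 127 and 28.9 CPM, so they were higher in class N in D-CAN alone. The 6 neutrophil markers, at 9.14, 21.1, 10.6 and 10.4 CPM, were below the other gated cells in all 4 libraries, as were the CAF, nerve and mesothelial lists. The B cell, nerve and mesothelial lists summed to at most 29.8, 37.0 and 347 CPM, the last almost all Msln, which pancreatic tumor cells express themselves. Cd3e, Ly6g and Cdh5, which define T cells, neutrophils and ECs, had at most 0.279, 0.0293 and 0.645 CPM, and Pecam1, Ptprc and Pdgfra were absent by the gate.

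Some host markers were higher in class N cells in all 4 libraries. Flt1, a VEGF receptor of ECs, had 92.9, 32.0, 100.1 and 45.9 CPM in class N cells and 43.7, 19.5, 33.5 and 23.5 CPM in the others, while the 6 EC markers together summed to 97.3, 35.6, 104 and 49.7 CPM, so nearly all of that sum was Flt1. Mrc1, a macrophage receptor, had 28.5, 52.8, 29.0 and 9.90 CPM against 16.4, 18.0, 11.4 and 7.28 CPM, whereas Lyz2, another macrophage gene, differed by −2.16 to −0.90 in the same cells. Rgs5, the most abundant of the pericyte markers, had 3.43, 6.45, 5.25 and 6.75 CPM against 1.04, 1.31, 2.50 and 5.88 CPM. In D-CAN alone, the acinar gene Ctrb1 had 180 CPM in class N cells and 62.9 CPM in the others. The part of host RNA in the differences of class N was not tested.

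Leaving WT/PBS out, over the same 8522 genes, can only add genes to a count, and 39.35% of all compared genes were then above the shift and 39.6% below it. Of the EMT and mesenchymal list, 3 in place of 1 were past 2-fold higher and 6 in place of 5 above the shift, with 2 members below it. Of the oncofetal and let-7 target list, 3 in place of 1 were past 2-fold and all 7 above the shift. Of the junction and splicing list, 5 in place of 3 were past 2-fold lower. The cell cycle lists gained members below the shift, 5 in place of 1 for S phase and 5 in place of 2 for G2 and M phase, and the hypoxia list had 6 in place of 3 and the immediate early and heat shock list 4 in place of 2. Past 2-fold higher, the TGF-beta list had 2 in place of 1, and the paralog, heparan sulfate and RAS-MAPK lists 1 each in place of none. The counts of the mucous, duct, neuronal, YAP, MHC class I and transcription factor lists stayed as they were.

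Against each of the other classes alone, class N differed most from class G, with 543 genes at least 2-fold higher in all 4 libraries and 263 lower (9.57% of 8418 compared). Against class S there were 222 and 143 (4.37% of 8355), and against class H 288 and 411 (7.97% of 8765). Against the unassigned cells there were 39 and 150 (2.22% of 8525). Without WT/PBS these counts were 724 and 305 for class G, 432 and 174 for class S, 388 and 505 for class H and 94 and 181 for the unassigned cells. The smaller classes have fewer cells, down to 40 class G cells in D-CAN. Those held a median of 829 genes and 44.9% mitochondrial UMIs, and class G cells of WT/PBS a median of 13.9%, and the part of cell number and RNA quality in these counts was not tested.

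Within class N, GCV was compared with saline in Pdgfrb-TK mice over 3734 genes with at least 50 CPM in the higher library. Past 2-fold, 35 genes (0.937%) were higher with GCV and 15 (0.402%) lower, with no replicate. Against WT/PBS as the control the counts were 137 and 76, and with 20 CPM as the limit 93 and 45. Has2, the main hyaluronan synthase, was at 104 CPM with GCV and 15.04 CPM with saline, and in the other gated cells at 26.5 and 2.39 CPM. Ccn1, a matricellular YAP target, was at 180 and 49.9 CPM, and Timp3, a protease inhibitor, at 65.2 and 17.4 CPM. In class N cells of WT/PBS, the other saline library, Timp3 was at 62.6 CPM, near its level with GCV. Il33, an alarmin, was at 59.0 and 11.6 CPM in class N cells but at 94.4 and 72.5 CPM in the others, so its difference was 2.25 (log2) within the class and 0.38 outside it. Has2 and Il33 were also past 2-fold higher with D-CAN in class N cells, at 77.7 against 11.5 CPM and 102.9 against 21.1 CPM. They were among 8 genes past 2-fold in the same direction with both treatments, the others being Egfr, Flt1, Gpm6b, Rbms3 and Vcan, which were higher, and Cirbp, which was lower.

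Heat shock genes were among the genes higher with GCV. Of the 10 immediate early and heat shock genes, Hspa1a (58.0 against 15.4 CPM), Hspa1b (96.9 against 29.0 CPM), Hsph1 (128 against 51.3 CPM) and Atf3 (99.9 against 43.9 CPM) were past 2-fold and none was lower. Of 5 compared YAP targets, Ccn1 and Ankrd1 (265 against 114 CPM) were higher. The same genes except Atf3 were also past 2-fold in the other gated cells. Against the other saline library, WT/PBS, the direction turned for Hspa1a (373 CPM), Hspa1b (380 CPM), Hsph1 (204 CPM), Atf3 (170 CPM) and Ccn1 (268 CPM), and Ankrd1 (156 CPM) kept it.

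The largest rise and the largest fall belong to host genes. Igkc, an antibody light chain, was at 65.5 and 1.07 CPM in class N cells and at 115 and 1.39 CPM in the others, and the 5 B cell markers summed to 29.8 and 1.91 CPM in class N. Hbb-bs, a hemoglobin chain of red cells, was at 0.176 CPM with GCV and 99.2 CPM with saline. Both moved alike inside and outside the class, and the part of free RNA in them was not tested. The next falls were Anxa13, Tm4sf4, Sgcd, Lgals4 and Gsta4, at −2.19, −1.93, −1.82, −1.79 and −1.49 (log2).

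The class N genes themselves differed little between GCV and saline within the class (Hmga2 by −0.16, Klhl1 by −0.23, Lingo2 by −0.62, Tnnt2 by −0.34, Rgs20 by −0.10, Ndst3 by 0.74). In the other gated cells all 6 were higher with GCV, by 0.79 to 2.23. The rule used these genes, so no more is read from them.

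D-CAN was compared with saline in wild-type mice over 4009 genes, of which 264 (6.59%) were past 2-fold higher and 86 (2.15%) lower in class N cells. The split was 75.4% higher with CPM and 54.1% with TMM (171 genes higher, 145 lower), so the balance of directions depends on the scaling. The median over all compared genes was 0.13. WT/PBS is the library that stood apart, and against Pdgfrb-TK/PBS instead the counts were 71 and 20.

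**Figure D5:**
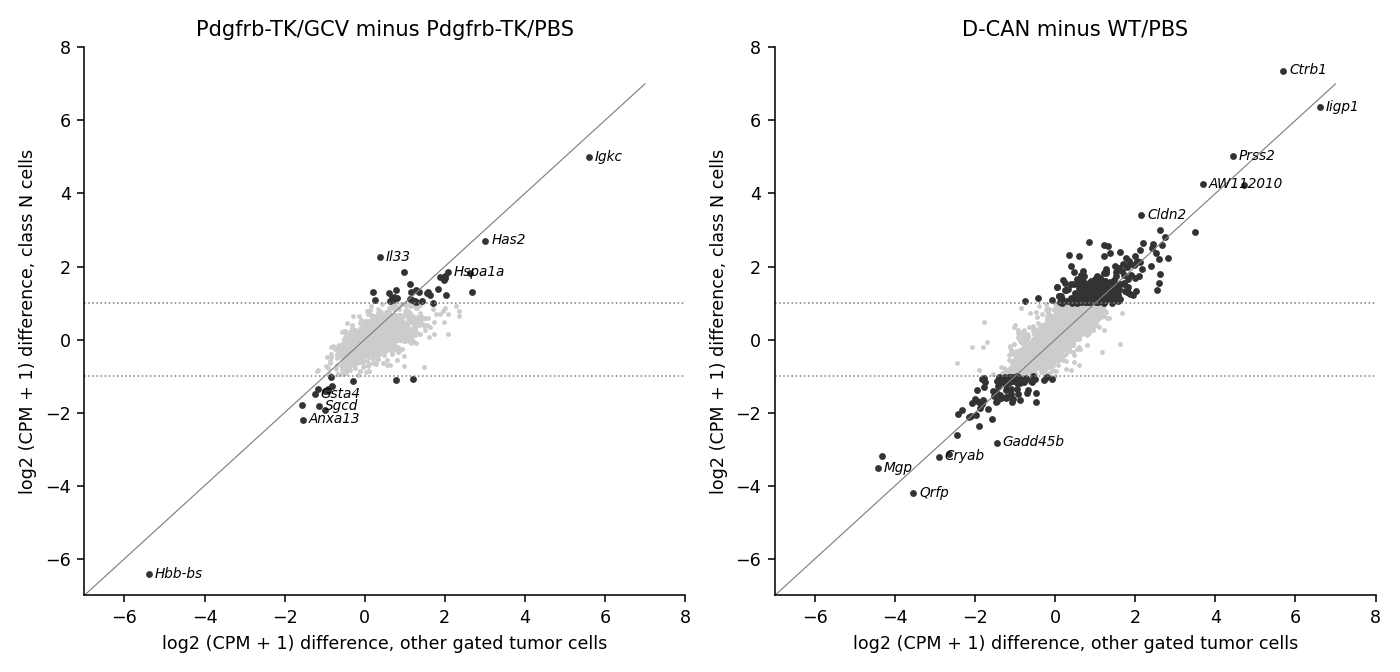
Difference in log2 (CPM + 1) between each treated library and the saline library of its model, in class N cells (vertical axis) and the other gated tumor cells (horizontal axis), for every compared gene; dark points are past 2-fold in class N, dotted lines mark 2-fold and the diagonal marks equality. Most dark points lie near the diagonal, and Il33 lies off it, at 2.25 in class N cells and 0.38 outside.

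The MHC class I list summed to 1524 CPM with D-CAN and 388 CPM with saline in class N cells, without a filter on its members. The interferon response list summed to 355 and 109 CPM. Of 9 MHC class I genes, 3 were compared and past 2-fold: H2-K1 at 281 and 35.8 CPM, H2-D1 at 350 and 109 CPM, and B2m at 777 and 222 CPM. Of 12 interferon response genes, 3 were compared and past 2-fold: Gbp2 at 50.6 and 1.75 CPM, Bst2 at 118 and 44.9 CPM, and Irf1 at 55.7 and 23.1 CPM. These 3 genes and H2-K1 reached the limit of 50 CPM only with D-CAN, where they were high. The counts of members past 2-fold are thus in part set by the filter. Iigp1, an interferon-induced GTPase, was at 97.9 and 0.200 CPM, and AW112010, an interferon-induced transcript, at 92.3 and 3.90 CPM. In the other gated cells H2-K1, H2-D1, B2m, Bst2, Irf1, Gbp2 and Iigp1 differed by more than in class N, for H2-K1 by 3.49 against 2.94 (log2), while AW112010 differed by less there, by 3.69 against 4.25. D-CAN was the library with the most Ptprc-positive cells without gate genes, 701 against 78 in WT/PBS, and their part in these values was not tested.

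Other genes were higher with D-CAN mainly within the class. Inhba was at 370 and 119 CPM in class N cells but at 64.8 and 56.1 CPM in the others, Ext1 at 950 and 391.8 CPM against 325 and 232 CPM, and Map2 at 51.2 and 14.6 CPM against 7.78 and 4.64 CPM. These genes were also higher in class N than in the other gated cells, and WT/PBS had the lowest class N share after thinning and the lowest class N level of all 6 set genes. A difference in treatment and a difference in the cells that the rule took from WT/PBS cannot be told apart. In class N cells of the other saline library, Pdgfrb-TK/PBS, Inhba was at 355 CPM and Map2 at 38.3 CPM, both within 2-fold of D-CAN, while Ext1 was at 405 CPM and D-CAN stayed past 2-fold above it.

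Heat shock genes were among the genes lower with D-CAN. Hspb1, a small heat shock protein, was at 137 CPM with D-CAN and 1208 CPM in WT/PBS, and at 70.9 and 26.9 CPM in the Pdgfrb-TK libraries with GCV and saline. Hspa1a was at 59.98 and 373 CPM and Cryab at 19.001 and 183 CPM. Of the 10 immediate early and heat shock genes, 4 (Hspa1a, Hspa1b, Dnajb1 and Atf3) were lower past 2-fold with D-CAN. WT/PBS had the highest class N level of the 4 libraries for each of these genes, and the treatment and the library cannot be told apart. Qrfp, Mgp, Clca3a1 and Gadd45b were the other leading falls, and the CAF genes Col1a1 and Col1a2 were at −1.69 and −1.94 (log2) in the same cells.

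Digestive enzymes of acinar cells were, with Iigp1, the leading rises with D-CAN. Ctrb1, a chymotrypsinogen, had 3883 UMIs with D-CAN and 2 with saline, a ratio of levels of 1803 with a counting interval of 499 to 14896, and Prss2, a trypsinogen, had 61.0 and 0.900 CPM. The 8 acinar markers summed to 269 and 20.01 CPM in class N cells and to 127 and 28.9 CPM in the others. Cldn2, a claudin of leaky tight junctions, was at 61.0 and 4.85 CPM, but at 48.7 and 53.8 CPM in the Pdgfrb-TK libraries with GCV and saline, so WT/PBS was the low library. The part of free acinar RNA was not tested.

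The saline libraries of the 2 models also differed from each other. Between Pdgfrb-TK/PBS and WT/PBS, 130 of 3810 genes (3.41%) were past 2-fold higher and 107 (2.81%) lower in class N cells, more than the 35 and 15 genes of GCV against its own control. D-CAN against its control had more genes higher (264) and fewer lower (86). The genotype of the host, the pool of tumors and the library cannot be told apart in that difference. Hspb1, Cryab and Hspa1a led the falls, at −5.44, −5.09 and −4.51 (log2), and Sgcd, at 264 and 18.5 CPM, was among the leading rises.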

How the data were processed

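Tumor cells were measured by droplet scRNA-seq (10x Genomics 3′ chemistry). The values the authors deposited are counts, whole-number UMIs that were not normalized, for barcodes already separated from empty droplets. The methods name Cell Ranger with mm10 in an earlier version than the 7.0.0 of the deposited headers, and the submitters' processing notes name STAR 2.6. Version 7.0.0 counts reads in introns by default, and whether they were counted is not given in the sources used here. The libraries held 12280, 10495, 10786 and 11657 barcodes, more than the number of cells the methods give per group, with 127722502, 84020317, 130115741 and 155408336 UMIs. Barcodes with under 2000 UMIs numbered 3230, 2903, 3297 and 2604. The label text names nuclei of another tissue and an age that differs from the methods. Pairs of libraries shared 26 to 42 barcodes, none of them in class N.

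The class rule, its members and the gene lists were chosen with earlier results of these data known. UMIs were summed per library and class and scaled to CPM, and log2 (CPM + 1) values were subtracted. Genes needed a mean of at least 10 CPM over the 8 sums and 100 UMIs for class comparisons, and 100 UMIs and 50 CPM in the higher library for conditions. Both limits can be met through the higher group alone. The 24 class genes and 11 gate genes were left out of counts of genes. Shares have Clopper-Pearson, levels exact Poisson and folds conditional binomial 95% intervals, which cover counting error only. For thinning, UMIs of each gated cell were drawn down to 2000. Doublets were kept, and an alternative removed the 8% of cells of each library with the highest Scrublet scores. Clusters were made from 2000 variable genes, 10 principal components, a graph over 20 neighbors and the Leiden method (resolution of 0.8), without batch correction. The genes named are the class N genes and their paralogs, the 12 largest rises and 8 largest falls by the smallest of the 4 differences, list members past 2-fold or else the most abundant 3, and the 6 largest rises and falls with each treatment. Other list members named were chosen after their values were seen. Values of some list members are not reported here. Alternatives changed depth, the number of class genes, the UMI and mitochondrial limits, doublets, the gate, each class gene, the control library, the pseudocount, the scaling (TMM), the filters, the cells compared and the clustering. Counts of list members without WT/PBS were added after seeing the data. The steps that call genes past 2-fold, between classes and between conditions, were run on simulated sums with counting error only. The gate and the class rule were not tested on simulated data. Software was Python 3.11.15, NumPy 2.4.6, SciPy 1.17.1, scanpy 1.11.5, igraph 0.11.9, matplotlib 3.10.9, R 4.3.3 and edgeR 4.0.16 (TMM only). Gene positions and 3′UTRs are from GENCODE M21 (GRCm38), in which 32235 of 32285 listed genes were found.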

Additional observations from a re-analysis of the deposited data

Results flagged for a closer look

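Reporter features were listed only in the libraries of the wild-type model and were used in no comparison. In class N cells of WT/PBS there were 22 UMIs of GFPcds and 16 of Tdtomato, against 3 and 2 in D-CAN. Over all cells the totals were 2017 and 1826 in WT/PBS and 605 and 676 in D-CAN. As CPM, GFPcds was at 1.10 in class N cells, 3.05 in the other gated cells and 33.4 in the cells outside the gate of WT/PBS.

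Of 20 genes past 2-fold between treated and saline class N cells in both models, 12 went in opposite directions, and all 12 are given here with GCV first and D-CAN after (log2). The 8 that were higher with GCV and lower with D-CAN were Hspa1a (1.85 and −2.62), Ccn1 (1.83 and −1.91), Hspa1b (1.71 and −1.88), Flnc (1.69 and −1.48), Hspb1 (1.37 and −3.13), Atf3 (1.17 and −1.09), Ppp1r15a (1.09 and −1.24) and Mt2 (1.02 and −1.51). The 4 that were lower with GCV and higher with D-CAN were Tm4sf4 (−1.93 and 1.15), Sgcd (−1.82 and 1.75), D5Ertd615e (−1.14 and 2.998) and 9030622O22Rik (−1.01 and 1.55). With 1 library per condition the difference between the models was not tested. WT/PBS had the highest class N level of the 4 libraries for each of the 8 genes and the lowest for each of the 4. Pdgfrb-TK/PBS had the lowest level for the 8 except Ppp1r15a, which was lowest in D-CAN, and the highest for the 4 except 9030622O22Rik, which was highest in D-CAN. Hspb1 was at 1208 CPM in WT/PBS and 26.9 CPM in Pdgfrb-TK/PBS.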

How the results depend on the processing

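The GCV fold of the class N share, 2.80, was 2.24 with cells thinned to 2000 UMIs, 3.19 with Hmga2 left out of the rule and 2.30 against the saline library of the other model. The D-CAN fold, 1.54, was 2.88 thinned, 1.77 with at least 3 class N genes, 1.71 without Lingo2, 2.45 without Hmga2, 1.88 without Tnnt2 and 1.88 against the other saline library. With the stricter host gate it was 0.922, below 1. That gate drops cells by markers that were higher in class N, such as Flt1 and Mrc1, and by markers that were lower, such as Lyz2. Their part in the fold was not tested. Clusters of more than 50% class N held 82.7%, 64.8%, 79.4% and 0% of the class N cells with each library clustered alone, against 55.1% together. The 139 genes that were higher became 85 with a pseudocount of 5 CPM, 74 with TMM and 221 against classes G, S and H only, and the 191 that were lower became 359 without the filter on mean CPM. Leaving out 1 library at a time gave 138 to 247 genes higher and 180 to 261 lower, and the 247 and 261 came without WT/PBS, with the filter on mean CPM taken over the 3 libraries left. For GCV the counts of genes higher and lower, 35 and 15, were 137 and 76 against the other saline library and 93 and 45 with 20 CPM as the limit. For D-CAN, 264 and 86 became 71 and 20 against the other saline library, 515 and 147 with 20 CPM, and 171 and 145 with TMM. The cause of these changes was not tested, but a lower limit admits more genes. With the rule applied to thinned cells, 94 genes were higher and 133 lower, and 75 and 125 of them were shared with the full-depth counts. Over 72 named genes and 10 alternatives, no called gene changed its direction, but 69 of the values moved by more than the SD over the 4 libraries and 651 by less. Of the class N shares per library, 42 moved outside their counting interval and 6 stayed within it. No paired analysis was possible because there is 1 library per condition.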
